A study of Mus musculus with 30 samples.

Results

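Pttg1 and Sycp3 were 2 of the 4 probes that passed between Per3 4/4 and wild-type (WT) mice in the hypothalamus, in the main fit. In other settings of the fit they did not always pass. The array held 1 probe of each gene, 2 of its 41174 probes, and both were among the 29947 probes tested. The members were all probes that the array annotation names Pttg1 or Sycp3. Both genes had been picked because their probes passed the test between Per3 4/4 and WT, so their values in that comparison are given here as a description, without a test. The difference between Per3 5/5 and WT played no part in the choice and was tested. The arrays behind it did take part, because the main fit estimated the variance of a probe over all arrays together. Fitted on the Per3 4/4 arrays and the WT arrays measured with them alone, neither gene passed. The test of Per3 5/5 is therefore not fully independent of the choice.

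RNA came from the hypothalamus of 30 mice, 1 array per mouse. The labels call the 5-repeat line Boxhill and the 4-repeat line Coach. There were 7 Per3 5/5, 8 Per3 4/4 and 15 WT mice, which the methods describe as male C57BL/6 mice. Both knock-in lines were homozygous for human PER3 exon 18 in place of the mouse exon, with 4 or 5 repeats. They were made in Bruce4 embryonic stem cells, a C57BL/6-Thy1.1 congenic line, and Cre under the ubiquitous PGK promoter was bred out again after excision. WT mice came from the same conditional founders and carried the mouse gene. All groups had been kept in cycles of 3.5 h light and 3.5 h dark, and tissue was taken in the light of cycle 17. The files fell into 2 runs that differed in layout and rounding. Run 1 held Per3 5/5 and WT arrays 1 to 7, run 2 held Per3 4/4 and WT arrays 8 to 15, and knock-in and WT mice shared each slide, so all comparisons were made within a run. A level is the log2 intensity of a probe minus the 75th percentile of its array, so that 0 is the intensity which 3 in 4 spots do not exceed. A probe is called well above background where the scanner software marked it so.

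Pttg1 encodes securin, the inhibitor of separase. Securin holds separase inactive until the spindle checkpoint is satisfied, when the anaphase-promoting complex marks it for destruction, separase cuts cohesin and the sister chromatids part. The gene takes its name, pituitary tumor-transforming gene, from rat pituitary tumor cells, and it is best known in dividing cells and in pituitary tumors. Sycp3 encodes a structural protein of the axial and lateral elements of the synaptonemal complex, the scaffold that aligns homologous chromosomes in meiosis. It is known from germ cells and is usually silent in somatic tissue such as brain. PER3 is a period protein of the circadian clock.

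The probes are shown by their first 30 bases, because every value below rests on these 2 sequences alone. The Pttg1 probe A_51_P371190 is annotated to transcript NM_013917 and lies on the minus strand of chromosome 11, at chr11:43233801-43233860 of build mm9. The Sycp3 probe A_51_P274465 is annotated to Y08485, at chr10:87932348-87935438 of mm9 on the plus strand. Its 60 bases span 3091 bases of the genome, so it crosses at least 1 intron. No other probe of the array had either sequence. The shares of G and C were 35.0% in the Pttg1 probe and 36.7% in the Sycp3 probe.
Pttg1 probe, 5′ to 3′: ccgcctgtttgttacgatgcagatatttaa
Sycp3 probe, 5′ to 3′: agaatgtttgcaatgaaacagatacacgag

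The promoters were searched because both members moved in the same comparison and because the clock factors bind E-boxes. In the RefSeq promoters of build GRCm38.p6, 250 bases before to 50 after the start, the E-box CACGTG occurred 2 times in Sycp3, at positions -64 and -43 from the start, with 15 bases between. The stretch that holds both, with the E-boxes in capitals, is at chr10:88459522-88459551 on the plus strand.
Sycp3 promoter, 5′ to 3′: cCACGTGagaacgggcatggagCACGTGct
At least 1 CACGTG was held by 7.15% of all 32851 promoters. The Sycp3 promoter also held the E2F site, spelled GCGGGAA, as did 4.60% of promoters counting both strands, and the CCAAT box, as did 37.4%. The Pttg1 promoter held none of these 3 motifs on either strand, nor the cell-cycle element spelled TTTGAA, which was found in 17.9% of promoters. It held 20 CpG and the Sycp3 promoter 15, against fewer than these in 73.5% and 65.4% of promoters. These are matches of letters, and no binding was measured.

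Some arrays of run 2 stood apart. Per3 4/4 arrays 6 and 7 went against the description of the mice as male: the Y-linked Ddx3y was at -8.51 and -8.09 and not well above background, while it was well above background on the other 28 arrays. The Y-linked Eif2s3y, Kdm5d and Uty were not well above background on these 2 arrays either, and Xist was at 1.78 and 1.52. Uty was also not well above background on Per3 4/4 array 8 and WT arrays 10, 12 and 15, where Ddx3y was. Xist was also marked well above background on WT array 14, at -4.47, where Ddx3y was at 0.98. The differences of the members and of the genes and lists set beside them are therefore also given without these 2. Array 5 of Per3 4/4 was the dimmest, with a 75th percentile of 347 and 58.6% of spots well above background, against 490 to 1370 and 60.9% to 74.6% on the other arrays of run 2. The share of spots well above background was 67.0% to 73.9% in run 1. Precision is limited by the number of arrays. Of 26 markers of hypothalamic neurons with a probe, 21 were well above background on every array, among them Hcrt, Pmch, Avp and Oxt, and Otp on none. The Per3 probe lay between -4.55 and -2.28 on the 30 arrays, and its place relative to the replaced exon was not examined, so it does not check the labels.

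Pttg1 RNA was several times more abundant in 5 of the 8 Per3 4/4 mice than in any WT mouse of the run, while the other 3 lay at or near the WT levels. The levels on Per3 4/4 arrays 1 to 8 were 2.99, -0.29, 3.73, 2.89, 0.58, -0.24, 2.63 and 2.91. Those on WT arrays 8 to 15 were -0.00, -0.09, -1.37, -0.21, -0.17, -0.42, -0.20 and -0.85. Arrays 1, 3, 4, 7 and 8 were high. Array 5 was above every WT array by less than the range of the WT arrays, and arrays 2 and 6 were inside that range. Before scaling, the intensity on array 5 was 517, inside the WT range of 271 to 1120. Its 75th percentile was 347, so its place above WT rests on the scaling.

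The 16 levels of run 2 fell into a low set of 11 and a high set of 5 with an empty interval of 2.05 between them, from 0.58 to 2.63. All 5 high arrays were Per3 4/4. In intensity, Per3 4/4 ranged from 517 to 13900 with a median of 5780, and WT from 271 to 1120 with a median of 755, while the local background was 28 to 35.5. All 30 arrays detected the probe well above background. The SD of the 8 levels was 1.61, larger than that of 99.7% of the probes tested, whose median SD was 0.34. The SD among WT arrays of the run was 0.47, larger than that of 61.0% of the probes.

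The mean was 1.90 ± 1.61 (SD, n = 8) in Per3 4/4 and -0.42 ± 0.47 (n = 8) in WT, a fitted difference of 2.32 on the log2 scale. The mean describes few of the arrays, as 6 of 8 Per3 4/4 arrays were above every WT array, and 2 were not. Without arrays 6 and 7 the difference was 2.55, with 5 of 6 arrays above every WT array. Array 7 was high in Pttg1 and array 6 low. On every one of the 4 slides of run 2, each with 2 arrays of either genotype, the Per3 4/4 mean was higher, by 1.40, 4.10, 0.46 and 3.30. In a whole tissue, a change in the number of cells that make an RNA and a change in the RNA per cell cannot be told apart. Among the 29947 probes, 4 passed an adjusted p of 0.05 between Per3 4/4 and WT in limma, or 0.0134%, of which 3 were higher, or 0.01%, and 1 lower, or 0.00334%. At an unadjusted p under 0.05 there were 519, or 1.73%, with 295 higher, or 0.985%, and 224 lower, or 0.748%. Fitted on the arrays of run 2 alone 0 passed, and 0 passed in the methods' t-test. The methods also called probes by a rank product analysis, which was not run here. With 1 array left out 2 to 8 passed, 2 without Per3 4/4 array 4 or WT array 8, 8 without Per3 4/4 array 7 and 7 without WT array 9 or 11. Pttg1 and Sycp3 were 2 of the 3 that were higher in the main fit, as their choice required.

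**Figure D1:**
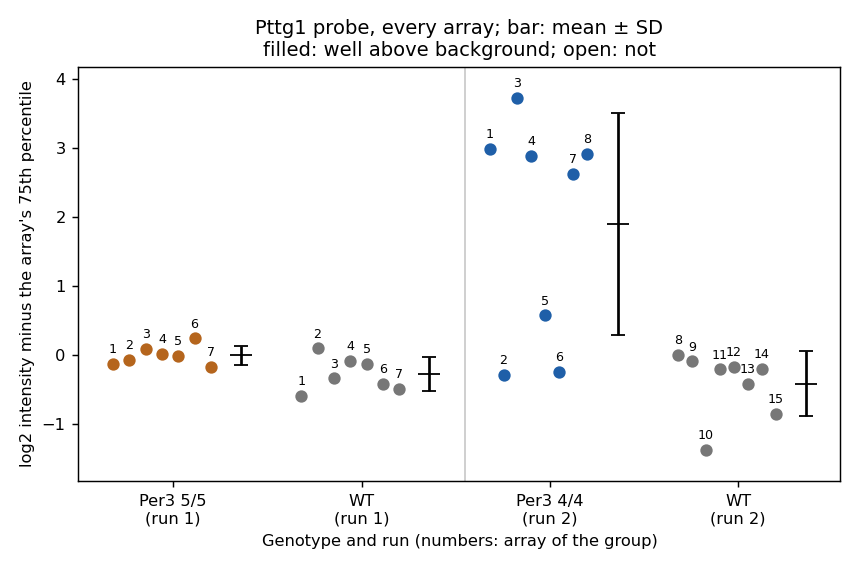
Level of the Pttg1 probe (log2 intensity minus the array's 75th percentile, y axis) on each array of the 4 groups, numbered as in the text, with the mean ± SD of the group in black. In run 2, 5 of 8 Per3 4/4 arrays lie at 2.63 or above and all WT arrays at -0.00 or below, while the groups of run 1 overlap.

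Sycp3 showed the opposite shape: in scaled level, a shift of all 8 Per3 4/4 arrays at the edge of detection. The levels on Per3 4/4 arrays 1 to 8 were -6.07, -6.44, -4.71, -5.41, -6.02, -5.88, -6.49 and -6.34. Those on WT arrays 8 to 15 were -7.78, -6.76, -7.43, -6.54, -7.53, -8.11, -7.73 and -7.15. Every Per3 4/4 array was above every WT array, but the lowest Per3 4/4 array, 7, and the highest WT array, 11, were nearly level. Before scaling, the intensities on Per3 4/4 arrays 5 and 7 were 5.36 and 7.03, inside the WT range of 3.13 to 10.6. The 75th percentiles of these arrays were 347 and 633, so their place above WT rests on the scaling of dim signals.

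The probe was well above background on arrays 3, 4 and 6 of Per3 4/4 and on 0 of 8 WT arrays. Its intensity was 5.36 to 40.2 in Per3 4/4 and 3.13 to 10.6 in WT, where the local background already subtracted was 29 to 35.5. Set against the lowest signal marked well above background on each WT array, the Per3 4/4 mean of -5.92 did not exceed the resulting bound of -5.91, so no fold is given. The measured means were -5.92 ± 0.60 (SD, n = 8) and -7.38 ± 0.53 (n = 8), and their difference of 1.46 came from values that were mostly not above background. Under normexp background correction, which adds an offset of 50 before the logarithm, the difference was 0.16. Without arrays 6 and 7 it was 1.55, with 6 of 6 arrays above every WT array and 2 of 6 well above background. On the 4 slides of run 2 it was 1.01, 1.93, 1.87 and 1.02. Among all probes tested, 2 had every Per3 4/4 array above every WT array, or 0.00668%, and these were Sycp3 and Mad2l2. Sycp3 was chosen on this contrast, so the count describes it and lends it no support. Its 2 closest arrays, Per3 4/4 array 7 and WT array 11, were both not well above background.

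**Figure D2:**
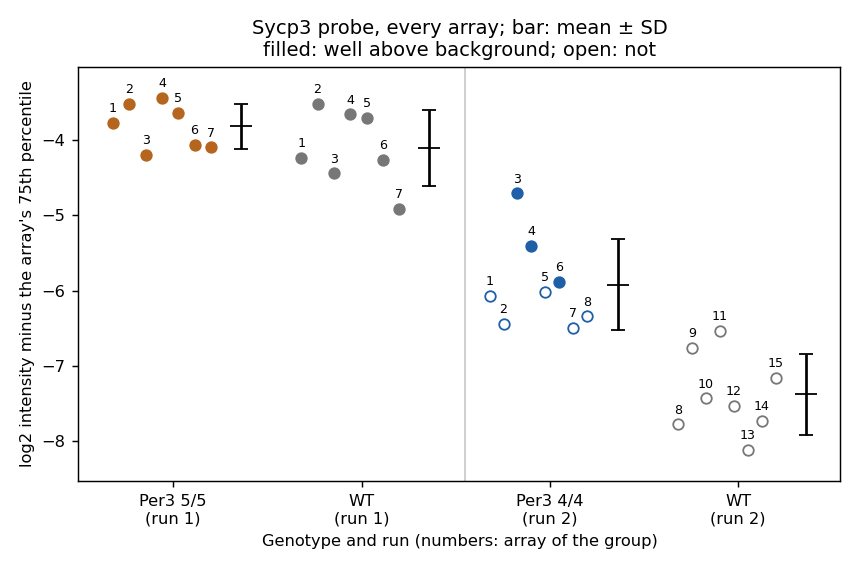
Level of the Sycp3 probe (log2 intensity minus the array's 75th percentile, y axis) on each array of the 4 groups, with filled points where it was well above background, open points where it was not, and the mean ± SD in black. All 14 arrays of run 1 are filled, and in run 2 only Per3 4/4 arrays 3, 4 and 6 are.

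In run 1 the Sycp3 probe was measured well above background on 14 of 14 arrays, at -4.92 to -3.44, with intensities of 30.9 to 85.4. Of the 26095 probes that were well above background on every array of run 1, 220, or 0.843%, were so on 3 or fewer of the 16 arrays of run 2, as Sycp3 was. The meiosis gene Hormad1 was another of these, with 14 of 14 arrays in run 1 and 1 of 16 in run 2. The local background at the Sycp3 probe was 53.5 to 62 in run 1 and 29 to 35.5 in run 2. The runs differed in file layout, rounding, background and mice at once, so these cannot be told apart. Levels were not compared between runs.

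Neither gene passed the adjusted threshold between Per3 5/5 and WT. No probe did in the limma fit, 0% of 29947, with 1849 at an unadjusted p under 0.05, or 6.17%. Of these 1027 were higher in Per3 5/5, or 3.43% of all tested, and 822 lower, or 2.74%. Every Per3 5/5 array was above every WT array in 23 probes, or 0.0768%, and neither member was among these. The methods' t-test, again without their rank product analysis, passed 0 and had 3120 at an unadjusted p under 0.05. Pttg1 levels on Per3 5/5 arrays 1 to 7 were -0.13, -0.07, 0.09, 0.01, -0.01, 0.24 and -0.18. Those on WT arrays 1 to 7 were -0.59, 0.10, -0.34, -0.09, -0.13, -0.43 and -0.49. The groups overlapped, with 1 of 7 Per3 5/5 arrays above every WT array, and the largest gap between neighbouring levels of run 1 was 0.16.

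The Pttg1 difference was 0.27 on the log2 scale, with a standard error of 0.45 and an adjusted p of 0.976 in limma over all 30 arrays. That standard error is shared with Per3 4/4, whose spread was large. Fitted on the arrays of run 1 alone, the standard error was 0.11 and limma's adjusted p 0.455. An exact two-sided permutation test of the same difference, 7 against 7 arrays, gave p = 0.0297, and 2 such tests were made. All 7 Per3 5/5 arrays were above the WT mean, and the Per3 5/5 mean was higher on 4 of 4 slides, by 0.22 to 0.39. Leaving out Per3 5/5 array 6 gave p = 0.0577 in the exact permutation test. Leaving out WT array 1, 3, 6 or 7 gave exact permutation p of 0.0565, 0.0513, 0.0548 and 0.0559.

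Sycp3 levels on Per3 5/5 arrays 1 to 7 were -3.77, -3.52, -4.19, -3.44, -3.64, -4.06 and -4.10. Those on WT arrays 1 to 7 were -4.24, -3.52, -4.44, -3.66, -3.70, -4.26 and -4.92. The groups overlapped, with 1 of 7 Per3 5/5 arrays above every WT array. The difference was 0.29 with a standard error of 0.26 and an adjusted p of 0.903 in limma, and the exact two-sided permutation test gave p = 0.216. Per3 5/5 was higher on 2 of 4 slides, from -0.21 to 1.27, and without WT array 7 the limma difference was 0.15. Whether the difference from WT was itself unlike in the 2 knock-in lines was not tested, since the members were chosen on one of these differences.

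The members were compared array by array. Over the 16 arrays of run 2 Pearson's r between Pttg1 and Sycp3 was 0.71 with genotypes pooled, and the arrays share the percentile scaling. Within the 8 Per3 4/4 arrays it was 0.43 and within the 8 WT arrays 0.03. In run 1 r was 0.63 over 14 arrays, 0.83 within WT and -0.26 within Per3 5/5. Array 3 of Per3 4/4 was highest in both genes, whereas array 7 was high in Pttg1 and the lowest of its group in Sycp3. Neither gene followed the share of spots well above background in run 2, with r of 0.17 for Pttg1 and -0.06 for Sycp3.

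The probe most like Pttg1 was that of Nudcd2, which encodes a NudC-domain protein and lies on the same chromosome, 2.68 Mb away. Over the 16 arrays of run 2 r was 0.88, the highest of 29816 probes ranked. Nudcd2 levels on Per3 4/4 arrays 1 to 8 were -1.97, -2.66, -1.08, -1.38, -2.01, -2.60, -1.81 and -1.80. On the 8 WT arrays of run 2 they ran from -3.09 to -2.22 with a median of -2.73. In scaled level, the 6 Per3 4/4 arrays above every WT array in Pttg1 were also the 6 above every WT array in Nudcd2. Arrays 2 and 6 were inside the WT range in both. Array 5, the dimmest, was among the 6, and its place above WT in Pttg1 rests on the scaling. Within Per3 4/4 r was 0.89, within WT of run 2 0.20, and in the low set of 11 arrays 0.50. Without arrays 6 and 7, r over run 2 was 0.88 and the Nudcd2 difference from WT 0.87, against 0.77 with them. In run 1, which the ranking did not use, r was 0.10 over 14 arrays, and the Nudcd2 difference between Per3 5/5 and WT was 0.01.

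**Figure D3:**
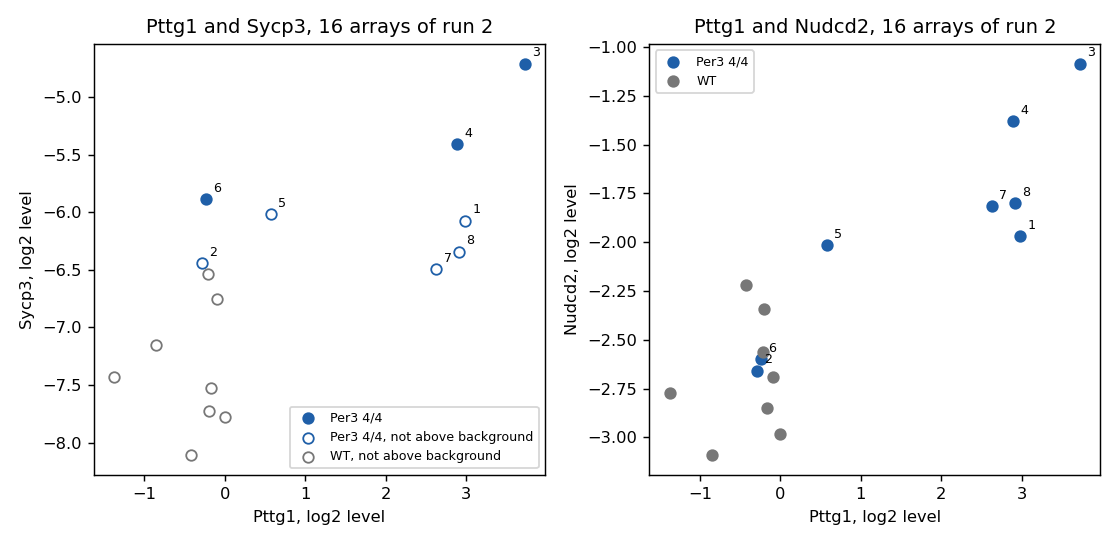
Level of Sycp3 (left) and Nudcd2 (right) against the level of Pttg1 (log2, relative to the 75th percentile) on the 16 arrays of run 2, with Per3 4/4 arrays in blue and numbered, WT in grey and open points where the plotted gene was not well above background. Arrays 2 and 6 of Per3 4/4 lie with WT on the right, whereas on the left they lie above all WT arrays.

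The next most similar to Pttg1 in run 2 were ENSMUST00000066153, annotated to collagen type VI alpha 3, with r = 0.73, Nts, the precursor of the neuropeptide neurotensin, with 0.71, Sycp3 itself with 0.71, and Gnrh1, the precursor of gonadotropin-releasing hormone, with 0.68. Within Per3 4/4 their r was 0.73, 0.73, 0.43 and 0.85, and within WT 0.54, 0.57, 0.03 and 0.20. In run 1 it was -0.49, 0.43, 0.63 and -0.16. For Sycp3 the 5 most similar probes in run 2 were Tbce, a tubulin-folding cofactor, with r = 0.77, C030048B08Rik with 0.73, Cops8, a subunit of the COP9 signalosome, with 0.73, Fbxo6, an F-box protein that recognizes glycoproteins, with 0.72, and AK161748 with 0.71. Sycp3 was above background on only 3 of these 16 arrays, and the ranking pools the genotypes whose difference chose it. Within Per3 4/4 their r was 0.82, 0.33, 0.59, -0.03 and 0.83, and within WT 0.28, 0.63, 0.82, 0.55 and 0.59. Their r in run 1 lay between -0.26 and 0.02. Fbxo6 lies 1.28 kb from Mad2l2 on chromosome 4, the chromosome of Per3, and 7 of 8 Per3 4/4 arrays were above every WT array in it.

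No gene beside the members on the chromosome passed the test. Within 1 Mb of the Pttg1 probe, 16 probes of 10 other genes were tested, and 0 passed in either knock-in line in limma, with 1 at an unadjusted p under 0.05 in Per3 4/4 and 3 in Per3 5/5, where these shares over all probes were 1.73% and 6.17%. Their differences between Per3 4/4 and WT ran from -0.23 to 0.88 with a median of 0.11, and without arrays 6 and 7 from -0.27 to 0.87. The nearest was Slu7, a splicing factor, whose 2 probes were at -0.01 and 0.13. C1qtnf2, a C1q-like secreted protein, was at 0.08 and Ccnjl, a cyclin-like gene, at -0.16. On the other side AK087644 was at 0.88 with a standard error of 0.35 and an adjusted p of 1.00 in limma, and the 3 probes of Gabrb2, a GABA-A receptor subunit, were at 0.10, 0.23 and 0.21.

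Within 1 Mb of the Sycp3 probe, 24 probes of 15 genes were tested, and 0 passed in either line in limma. Those at an unadjusted p under 0.05 were 0 in Per3 4/4 and 1 in Per3 5/5, beside 1.73% and 6.17% of all probes. The differences between Per3 4/4 and WT ran from -0.40 to 0.92 with a median of 0.01, and without arrays 6 and 7 from -0.43 to 1.04. Chpt1, which makes phosphatidylcholine, has probes on both sides of the midpoint of the Sycp3 probe. The closest has its midpoint 0.898 kb away, inside the 3091 bases that the Sycp3 probe spans. The 4 Chpt1 probes were at -0.07, 0.23, 0.24 and 0.12. Gnptab, of the mannose 6-phosphate tagging of lysosomal enzymes, was at -0.07 to 0.05, and Dram1, a lysosomal membrane protein, at 0.01. Arl1, a Golgi GTPase, was at 0.08 and 0.02 and Utp20, of ribosome biogenesis, at 0.00. The highest was Pmch, the melanin-concentrating hormone precursor of lateral hypothalamic neurons, at 0.92 with a standard error of 0.57.

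**Figure D4:**
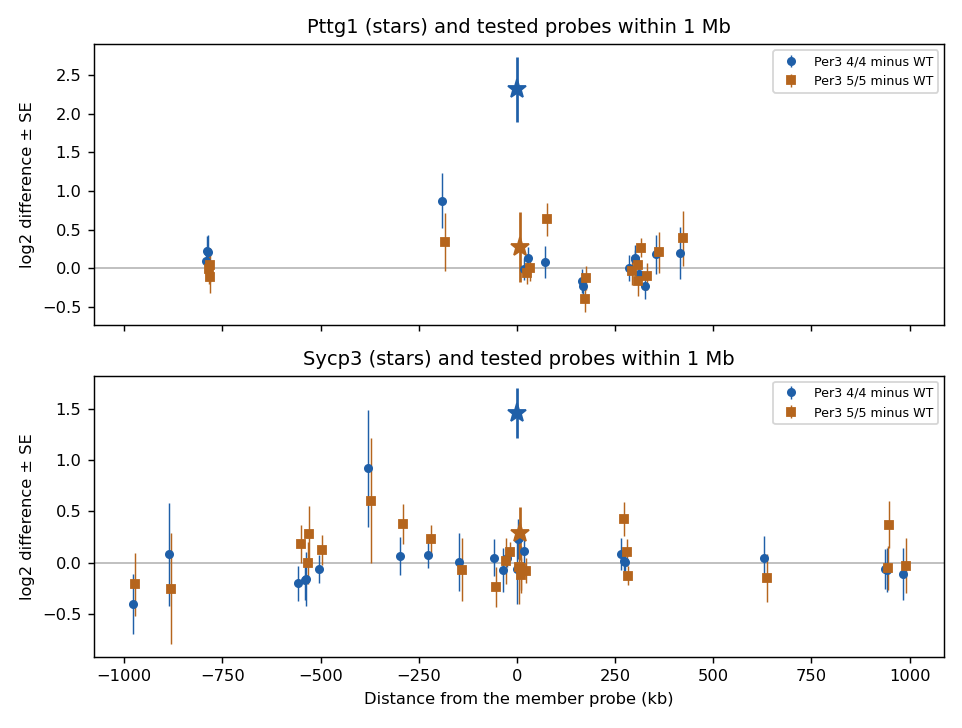
Fitted log2 difference from WT ± standard error (y axis) of every tested probe within 1 Mb of the Pttg1 probe (top) and the Sycp3 probe (bottom) against its distance in kb, with Per3 4/4 in blue, Per3 5/5 in brown and the member as a star. The neighbours lie between -0.40 and 0.92 in Per3 4/4. The stars are the differences by which the members were chosen, and that of Sycp3 is against a probe above background on 0 of 8 WT arrays.

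Of 39 genes of the securin and separase pathway, 37 had a tested probe. In Per3 4/4, 1 of the 37 passed, Mad2l2, which was higher, beside 0.0134% of all probes. In Per3 5/5 0 passed in limma, with 1 at an unadjusted p under 0.05, beside 6.17% of all probes. The median difference was 0.00 in Per3 4/4 and 0.02 in Per3 5/5, beside 0.01 and -0.02 over all probes tested. Mad2l2 encodes MAD2B, an inhibitor of the anaphase-promoting complex that is also a subunit of DNA polymerase zeta. Its level was 2.52 to 2.98 on the 8 Per3 4/4 arrays and 1.40 to 2.31 on the 8 WT arrays of the run, without overlap. Its difference was 0.72, and 0.74 without arrays 6 and 7. It was already known to have passed when the list was made, so it is no independent sign of the pathway. Its probe lies at chr4:147519744-147519803 of mm9, and that of the targeted gene Per3 at chr4:150379256-150379315. Whether that position bears on the difference was not tested.

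Separase itself, Espl1, was at -0.19 in Per3 4/4 (standard error 0.26) and -0.27 in Per3 5/5 (standard error 0.28). In run 1 it was detected in 0 of 7 Per3 5/5 mice and 1 of 7 WT mice, so the second value is one between background signals. Pttg1ip, the securin-binding factor that carries it into the nucleus, was at -0.14 (standard error 0.08) and 0.02 (standard error 0.09). The cohesin subunit Rad21, which separase cuts, was at 0.14 and 0.02, and Cdc20, which activates the anaphase-promoting complex, at -0.08 and 0.07. The lowest in Per3 4/4 was Ube2c, the ubiquitin-conjugating enzyme of that complex, at -0.32. In Per3 5/5 the lowest was the checkpoint kinase Bub1b, at -0.96 with a standard error of 0.31 and an adjusted p of 0.796 in limma, and the highest the cohesin regulator Pds5b, at 0.27.

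No gene that marks dividing cells passed the test. Of 24 genes with a probe, 19 were tested, and 0 passed in limma in either line. At an unadjusted p under 0.05 there was 1 in Per3 4/4 and 0 in Per3 5/5, beside 1.73% and 6.17% of all probes. The median difference was -0.04 in Per3 4/4 and -0.06 in Per3 5/5. In Per3 4/4 the range ran from Ube2c at -0.32 to Birc5, the chromosomal passenger protein survivin, at 0.15. In Per3 5/5 it ran from Mki67, the proliferation antigen Ki-67, at -0.29 to Kif20a, a mitotic kinesin, at 0.21. The summed level of the list was 2.41 to 3.06 on Per3 4/4 arrays and 2.26 to 3.24 on WT arrays of run 2, and its r with Pttg1 over these 16 arrays was -0.07.

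Of 21 synaptonemal and meiotic genes with a probe, 10 were tested, and 0 passed in limma in either line. Those at an unadjusted p under 0.05 were 0 in Per3 4/4 and 1 in Per3 5/5, beside 1.73% and 6.17% of all probes. Of the 21, 4 were well above background on every array and 4 on none. Sycp1, the transverse filament protein, was well above background on 0 of 30 arrays. Sycp2, which pairs with SYCP3 in the axial element, was detected in this sense in 3 of 8 Per3 4/4 mice and 0 of 8 WT mice of run 2, and its difference was 0.16. The median difference was 0.02 in Per3 4/4 and -0.07 in Per3 5/5. In Per3 4/4 the highest was Hormad1, a protein of unsynapsed axes, at 0.60, though only 1 of 8 Per3 4/4 mice and 0 of 8 WT mice had it above background, and the lowest Mei1, needed for meiotic recombination, at -0.36. In Per3 5/5 the highest was Syce1, of the central element, at 0.51, and the lowest Hormad1, at -1.33 with a standard error of 0.45 and an adjusted p of 0.796 in limma.

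Genes related to Sycp3 by descent, the Cor1 family on the sex chromosomes, had 7 probes of which 3 were tested. Xlr, Xlr3c and Xlr4b were at 0.13, 0.21 and 0.39 in Per3 4/4 and at 0.02, 0.74 and 0.47 in Per3 5/5. In limma 0 passed, with 0 and 1 at an unadjusted p under 0.05, beside 1.73% and 6.17% of all probes. The Xlr genes are near-identical copies, so their probes can share signal. Of 13 germline genes that DNA methylation is known to silence in somatic cells, 8 were tested and 0 passed in limma in either line. Again 0 and 1 were at an unadjusted p under 0.05, beside the same shares of all probes. In Per3 4/4 the median was 0.18, from -0.11 in Dazl, an RNA-binding protein of germ cells, to 0.80 in Mael, of the piRNA pathway. In Per3 5/5 it was -0.06, from -1.33 in Hormad1 to 0.30 in Mael.

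**Figure D5:**
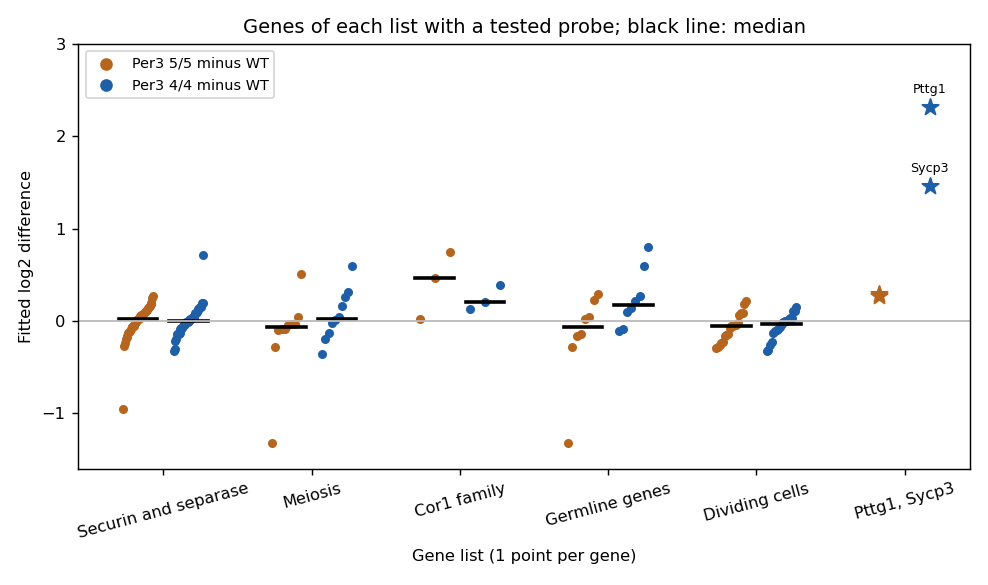
Fitted log2 difference from WT (y axis) of each gene with a tested probe in 5 gene lists, with Per3 5/5 in brown, Per3 4/4 in blue, the median of each list as a black line and the members as stars on the right. The medians lie between -0.07 and 0.47. The stars in blue are the differences by which the members were chosen and are no measure for the lists.

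Markers of tissue next to the hypothalamus were set beside the members. The 12 pituitary markers with a probe had a summed level of 1.60 to 4.70 on Per3 4/4 arrays and -0.30 to 9.95 on WT arrays of run 2, and r with Pttg1 was -0.12. WT array 14, the highest in pituitary markers, had Pttg1 at -0.20, and the 5 arrays high in Pttg1 had pituitary sums of 1.60 to 2.92. The part of pituitary tissue in the result was not tested. None of these markers was at background on every array, and Prl, the prolactin gene, was well above background on 7 of 8 and 6 of 8 arrays.

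Choroid plexus markers were higher in Per3 4/4 for 12 of 13 genes in sign, with a median of 0.90, where 51.7% of all probes were higher. Of the 13, 0 passed in limma and 3 had an unadjusted p under 0.05, beside 1.73% of all probes. Without arrays 6 and 7, 13 of 13 were higher, with a median of 1.35. For Per3 5/5, where 45.5% of all probes were higher, 0 of 13 were, with a median of -0.77. In limma 0 passed and 1 had an unadjusted p under 0.05, beside 6.17% of all probes. In Per3 4/4 the largest difference among these markers was that of Ttr, the transthyretin of that tissue, at 2.06 with a standard error of 1.32. Their summed level was 2.13 to 4.73 in Per3 4/4 and 1.46 to 4.61 in WT of run 2, with r of 0.34 with Pttg1 and 0.42 with Sycp3. Their part in the result was not tested.

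In the other lists of tissues and cells, pituitary included, 0 genes passed in limma in either line. At an unadjusted p under 0.05 there was 1, among cortex and hippocampus genes in Per3 5/5, beside 6.17% of all probes. The Y-linked genes, not above background on arrays 6 and 7, are not counted here. In Per3 4/4, 2 were at an unadjusted p under 0.05. The medians, first of the 4-repeat and then of the 5-repeat mice, were 0.23 and 0.16 for 7 genes of the thalamus, -0.32 and -0.04 for 7 of the striatum, -0.01 and -0.21 for 7 of cortex and hippocampus, -0.31 and -0.07 for 3 of blood, and -0.33 and 0.23 for 10 of the pituitary. For 25 genes of hypothalamic neurons they were 0.33 and 0.20. Without arrays 6 and 7 the Per3 4/4 medians were 0.40 for thalamus, -0.25 for striatum, -0.05 for cortex and hippocampus, -0.08 for blood, -0.30 for pituitary and 0.19 for hypothalamic neurons. Those of the lists tied to the members were 0.03 for securin and separase, 0.06 for meiosis, 0.30 for the Cor1 family, 0.35 for germline genes and -0.03 for dividing cells.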

How the data were processed

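Hypothalamic total RNA, labelled with Cy3, had been hybridized to 1-colour Agilent mouse arrays, 30 in all. The authors deposited the background-subtracted intensity of every spot as Feature Extraction 10.7.1.1 wrote it, without scaling across arrays. They also deposited log2 values, which their methods describe as shifted to the 75th percentile. Set against the scanner values, these had also been set to a median of 0 for every probe in either run. Values of run 2 are rounded to few digits, which matters for dim probes. Control spots and outlier spots (36 to 117 per array) were left out, no spot was saturated, the 75th percentile of each array was subtracted from the log2 intensities and spots of a probe were averaged. Probes entered the test when, in 1 or more genotypes, no fewer arrays marked them well above background than did not. Sycp3 met this in Per3 5/5, with 7 of 7 arrays, and not in Per3 4/4, with 3 of 8. In WT it was so marked on 7 of 7 arrays of run 1 and 0 of 8 of run 2. Without this filter Sycp3 also passed between Per3 4/4 and WT.

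Genotype and run were fitted over all 30 arrays with limma 3.58.1 in R 4.3.3, with Benjamini-Hochberg adjustment over 29947 probes at 0.05. The step was checked on simulated data. Permutation tests were exact and two-sided over 3432 splits, the smallest possible p being 0.000583. Python 3.11.15, numpy 2.4.6, pandas 2.3.3 and scipy 1.17.1 were used for the other steps.

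The Pttg1 and Sycp3 probes and all lists were chosen with earlier results of these data known. Genes named were every Pttg1 and Sycp3 probe, the 5 probes most like each in run 2, the extremes and any call of each list, the nearest 3 genes with a tested probe on each side within 1 Mb, Xist and Y-linked genes. Per3, Espl1, Pttg1ip, Rad21, Cdc20, Sycp1, Sycp2, Hcrt, Avp, Oxt and Prl were named for their role after their values were seen. A list gene was represented by its probe of the highest mean, and 186 of 198 symbols had a probe. Of 27968 probes with a RefSeq accession, 26918 were in the RefSeq table of GRCm38.p6, used for names and promoters only. Probe positions are those of the array annotation, build mm9 per the file headers of run 1, and were not converted.

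In the authors' log2 table the columns of run 1 follow other scanner files of the same genotype: 1 of 7 Per3 5/5 and 0 of 7 WT columns matched the file of their own number, while all 16 of run 2 did. Array numbers here are those of the scanner files. The replicate numbers of run 1 did not pair the arrays by their deviations (r from -0.28 to 0.40, 2 of 7 over 0.1). Alternatives were other background corrections, scalings, filters, blocks, variances and samples, and are given at the end.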

Additional observations from a re-analysis of the deposited data

Results flagged for a closer look

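Among the probes most like Sycp3, C030048B08Rik had 1 array far above the others of its group in both groups of run 2. Per3 4/4 array 4 was at -1.18 with the nearest array at -1.45, and WT array 9 was at -1.48 with the nearest at -1.65. In all, 44 groups of arrays were examined in this way, of which chance marks about 1 in 20, and 2 were marked.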

How the results depend on the processing

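The Pttg1 difference in Per3 4/4 was 1.42 (array weights) to 2.55 over 14 other settings and 2.05 to 2.63 with any 1 array left out. That of Sycp3 was 1.28 to 1.58 with 1 array left out, and 0.16 under normexp correction, which adds an offset to dim signals. Sycp3 has no value where only probes above background on every array were kept. In Per3 4/4 neither member passed on the arrays of run 2 alone, in the methods' t-test or with array weights. Pttg1 also did not pass with slide as a fixed block, without the filter on dim probes, or in most fits with 1 array left out. Sycp3 also did not pass under normexp or quantile normalization, or without Per3 4/4 array 4 or WT array 8. Both passed with slide as a random block and with trended robust variances. In Per3 5/5 Pttg1 was 0.15 to 0.30 and Sycp3 0.08 to 0.38 over the other settings, 0.22 to 0.34 and 0.15 to 0.39 with 1 array left out, and neither passed in any limma fit. The exact permutation p of Pttg1 was 0.0227 to 0.0297 over the other settings and 0.00583 to 0.0577 with 1 array left out, and that of Sycp3 0.109 to 0.538 and 0.0973 to 0.433. Probes that passed in Per3 4/4, 4 in the limma fit, were 0 on the arrays of the run alone and in the methods' t-test. They were 7 under normexp, with only probes above background on every array, with outlier spots kept, and without Per3 4/4 arrays 6 and 7. They were 8 with trended robust variances, and 9 with slide as a random block and with array weights. With 1 array left out they were 2 (without Per3 4/4 array 4 or WT array 8) to 8 (without Per3 4/4 array 7), with 7 without WT array 9 or 11. In Per3 5/5 they were 16 with array weights and 0 to 3 with 1 array left out, 2 without Per3 5/5 array 5 and 3 without WT array 7. The cause was not tested. With the replicate number of run 1 as a block, Pttg1 was at 0.27 and Sycp3 at 0.29, both with an adjusted p of 0.430 in limma, and 0 probes passed, though the numbers did not pair the arrays. No pairing by replicate number was possible in run 2, because its Per3 4/4 and WT arrays share fewer than 2 replicate numbers. Slide, which both genotypes shared, was fitted as a block. With slide as a fixed block the Per3 4/4 differences were 2.32 for Pttg1 and 1.46 for Sycp3. Signal over background limits Sycp3 in run 2, where 3 of 16 arrays measured it.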
